A study of Mus musculus with 4 samples.

Results

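The genes described here encode the NF-κB transcription factor subunits and the proteins that hold NF-κB back, and they were taken by symbol from the gene names that the array files give to non-control probes. All 10 genes named (Nfkb1, Nfkb2, Rela, Relb, Rel, Nfkbia, Nfkbib, Nfkbie, Nfkbiz and Tnfaip3) had a probe, 10 of the 34844 gene names on the array, with 15 probes between them. RNA came from salivary glands of female C57/BL6 mice at 10 weeks of age, and was hybridized to 1-colour Agilent whole mouse genome arrays, 1 sample to an array. Samples labelled Myd88-KO (2 arrays) came from Myd88-null mice and samples labelled Wildtype (2 arrays) from Myd88+/+ mice, and according to the methods both were born to heterozygous parents of a line backcrossed onto C57BL/6. The labels name submandibular glands together with sublingual glands and state that lymph nodes, connective tissue and fat had been dissected away. Whether each array holds 1 animal or a pool is not given in the sources used here, so the spread between arrays may be partly technical. The paper differs from the labels on these samples, since its methods head the array experiment with submandibular glands alone and its legends give more samples per genotype than there are arrays here. The labels were followed. The arrays answer whether transcripts of the NF-κB machinery differ in these glands when MyD88, the adaptor of most Toll-like receptors and of the IL-1 receptor family, is missing.

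NF-κB proteins are dimers of the subunits p50 (from Nfkb1), p52 (from Nfkb2), RelA, RelB and c-Rel. In resting cells they are held in the cytoplasm by inhibitor of κB (IκB) proteins. Receptors that signal through MyD88 activate the IκB kinase (IKK), which marks IκB for ubiquitination and destruction, and the freed dimers move to the nucleus. Among the genes they switch on are several of their own inhibitors, including Nfkbia, Nfkbie and Tnfaip3, so that the pathway limits itself. Transcript levels do not report how much NF-κB is in the nucleus, because its activation is mainly a matter of protein movement and breakdown.

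The start regions of the genes show where such feedback could be written in sequence. RefSeq promoter windows (GRCm38.p6, 250 bases before to 50 after an annotated start) were held for 7 of the 10 genes, and none was held for Nfkb1, Relb and Nfkbiz. The 10-base NF-κB consensus was searched on both strands, overlapping matches being joined into 1 run. It was present in 1480 of 32851 windows (4.51%) and 7 of the 10 windows of these genes, or, counted by gene, in 1388 of 27025 genes (5.14%) and 5 of these 7, namely Nfkb2, Rel, Nfkbia, Nfkbie and Tnfaip3. No match lay in the windows of Rela and Nfkbib. Shown are 4 genes with a match and Nfkbib without, because Nfkbie and Nfkbib were the members whose intervals did not include 0, and the others are textbook feedback genes. Sequences run 5′ to 3′ on the strand of the gene, with matches in capitals, and positions count from 0 at the annotated start. The Nfkb2 window, the first of 3 annotated starts, lies at chr19:46304487-46304786 (+ strand), with matches at −39 and −11.
Nfkb2: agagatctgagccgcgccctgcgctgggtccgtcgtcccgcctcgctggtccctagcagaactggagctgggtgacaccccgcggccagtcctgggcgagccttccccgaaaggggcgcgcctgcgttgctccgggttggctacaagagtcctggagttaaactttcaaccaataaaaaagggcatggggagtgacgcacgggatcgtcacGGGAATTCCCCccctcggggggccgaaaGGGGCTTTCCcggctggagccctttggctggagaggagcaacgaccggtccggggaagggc
The Nfkbia window lies at chr12:55492598-55492897 (- strand), with a match at −29.
Nfkbia: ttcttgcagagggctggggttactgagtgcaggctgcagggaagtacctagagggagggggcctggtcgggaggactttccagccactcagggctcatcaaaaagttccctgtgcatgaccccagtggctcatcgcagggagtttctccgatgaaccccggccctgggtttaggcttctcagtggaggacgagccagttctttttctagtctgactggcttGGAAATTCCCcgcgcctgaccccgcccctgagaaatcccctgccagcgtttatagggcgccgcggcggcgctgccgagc
The Nfkbie window lies at chr17:45555450-45555749 (+ strand), with a match at −106.
Nfkbie: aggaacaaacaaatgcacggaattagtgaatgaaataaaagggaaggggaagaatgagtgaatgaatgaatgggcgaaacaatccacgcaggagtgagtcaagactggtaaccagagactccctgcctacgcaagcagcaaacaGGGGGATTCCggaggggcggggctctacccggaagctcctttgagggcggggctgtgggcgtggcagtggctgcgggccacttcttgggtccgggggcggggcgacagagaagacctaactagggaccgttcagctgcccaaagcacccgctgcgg
The Tnfaip3 window, the first of 2 annotated starts, lies at chr10:19015361-19015660 (- strand), with matches at −125 and −12.
Tnfaip3: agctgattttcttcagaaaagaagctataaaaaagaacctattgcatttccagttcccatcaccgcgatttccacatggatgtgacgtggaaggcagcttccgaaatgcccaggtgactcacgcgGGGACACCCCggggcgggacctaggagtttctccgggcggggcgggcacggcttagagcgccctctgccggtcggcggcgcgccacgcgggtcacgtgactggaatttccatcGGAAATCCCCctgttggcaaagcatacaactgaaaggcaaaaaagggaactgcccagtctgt
The Nfkbib window lies at chr7:28766595-28766894 (- strand).
Nfkbib: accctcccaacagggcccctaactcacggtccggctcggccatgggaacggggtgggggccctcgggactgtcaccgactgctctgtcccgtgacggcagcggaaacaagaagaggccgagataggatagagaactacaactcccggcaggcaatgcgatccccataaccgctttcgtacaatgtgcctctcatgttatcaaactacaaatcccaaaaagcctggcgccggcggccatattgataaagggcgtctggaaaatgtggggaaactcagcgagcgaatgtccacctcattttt

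Values are log2 processed signals relative to the 75th percentile of each array, so that a value of 0 means a spot as bright as that percentile, and a difference is the mean of the Myd88-KO arrays minus the mean of the Wildtype arrays. Probes differ in brightness for reasons other than transcript amount, so a brighter probe is not read as more transcript, and sums of probe signals are compared between arrays only. The arrays did not detect equally well. Probes well above background made up 52.2% of all probes on Myd88-KO array 1, 68.4% on Myd88-KO array 2, 74.2% on Wildtype array 1 and 55.1% on Wildtype array 2. Between spots of the same probe on 1 array, the median SD was 0.064 to 0.072 log2 units over 275 probes with 10 spots. The deleted gene has 1 probe with 10 spots, starting at base 1629 of the Myd88 transcript. Its signal was 1.51 and 1.41 on the Myd88-KO arrays and 1.15 and 1.07 on the Wildtype arrays. The part of Myd88 removed in these mice is not given in the sources used here, so the labels cannot be checked with it.

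No member passed the test across all genes. Of the 10 members, 9 were bright enough to test, with a probe well above background on each array of 1 label or the other, and Rel was not. At an adjusted p under 0.05, limma called 0 of 22312 genes (0%) and 0 of the 9 members. At an unadjusted p under 0.05 it listed 2190 genes as higher in Myd88-KO (9.82% of genes tested) and 1525 as lower (6.83%), and among the members 1 was higher (Nfkbib) and 1 was lower (Nfkbie). The split between higher and lower genes depended on scaling, since 59% of the genes listed were higher as reported, against 48.7% with quantile normalization, 46.7% with the 75th percentile of detected probes, 24.1% with the median and 41.5% with cyclic loess. The number of genes called was 79 with normexp background correction, 402 with median scaling, 482 with trended and robust moderation and 1 with the methods' t-test on log2 or linear values, and none of these calls was a member. An exact permutation test of 2 arrays against 2 cannot go below p = 0.333.

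Across the 9 members tested, 4 differences were above 0 and 5 below, with a median of −0.03, beside a median of 0.06 over all genes tested. The differences of 7 members were smaller than 0.5 log2 units, and 8 were smaller than 1 log2 unit. Over all 22312 genes tested, 18683 were smaller than 0.5 log2 units and 21243 smaller than 1 log2 unit. The 2 Myd88-KO values lay above both Wildtype values for Nfkb2 and Nfkbib (2 of 9, where 33.2% of all genes did so), and below both for Nfkbie and Tnfaip3 (2 of 9, where 18.7% of all genes did so). These separations depended on scaling, except those of Nfkbie and Tnfaip3, which held under the 4 other scalings. Nfkb2 overlapped under all 4 and Nfkbib under median scaling, while Rela lay below with quantile normalization and cyclic loess and Nfkbiz with median scaling. Neither share of so few genes sets the members apart from the rest of the array.

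**Figure D1:**
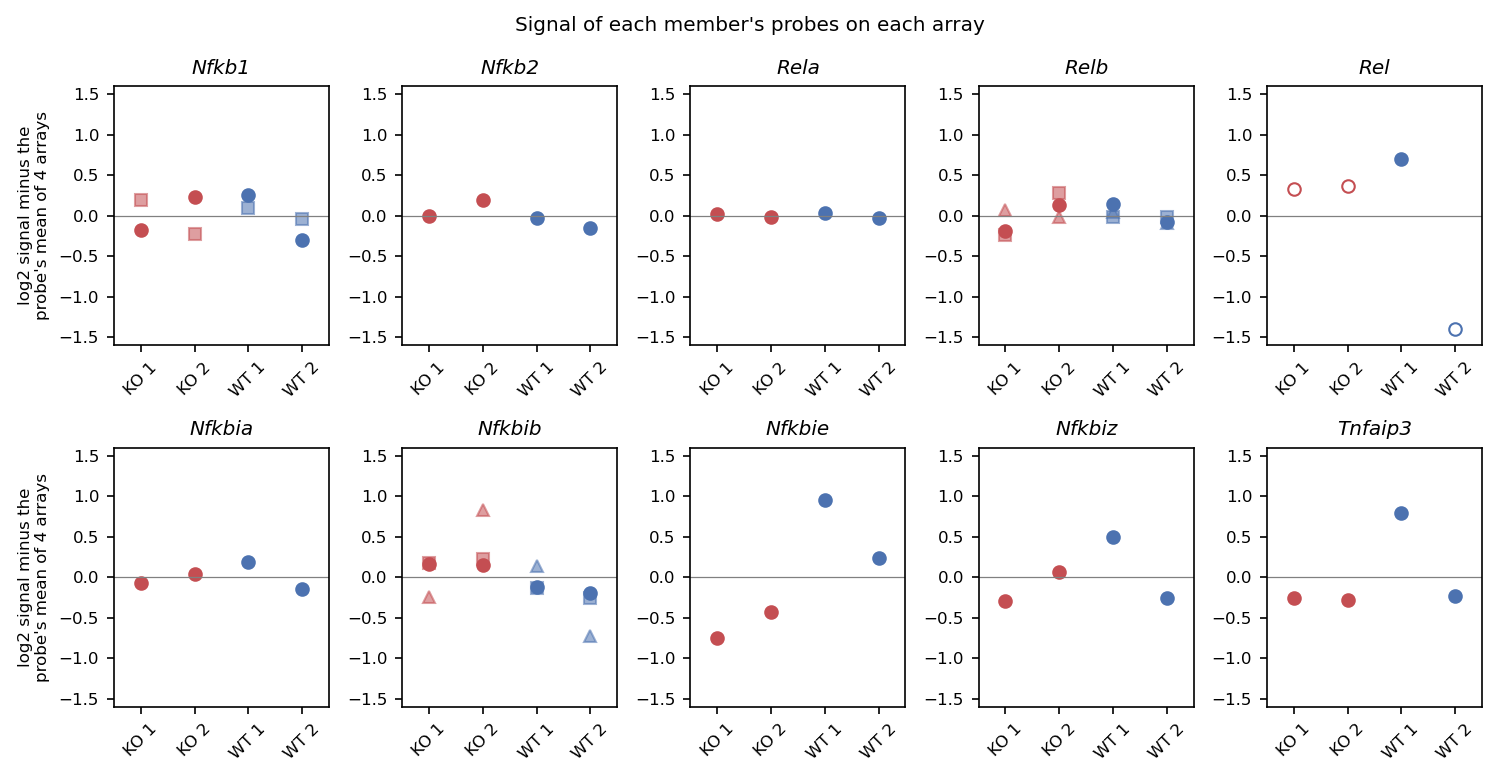
Log2 signal of every probe of the 10 members on each of the 4 arrays, minus that probe's mean over the arrays (red, Myd88-KO, written KO; blue, Wildtype, written WT; circles, the brightest probe; paler squares and triangles, further probes; open symbols, not well above background). Nfkbie is low on both Myd88-KO arrays, Tnfaip3 is high on Wildtype array 1 alone, Rela is nearly level, and Rel is well above background on 1 array.

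Among the subunits, Rela encodes RelA (p65), the transactivating partner of p50 in the canonical dimer. Its signal was 4.002 and 3.967 on the Myd88-KO arrays and 4.017 and 3.952 on the Wildtype arrays. The Wildtype values enclosed both Myd88-KO values, and the difference was 0.0007 (95% CI −0.28 to 0.28). Its sign turned under 7 of the other settings, with values between −0.09 and 0.03, so no direction can be given.

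Nfkb1 encodes p105, the precursor of p50, which itself acts as an inhibitor before processing. The brighter of its 2 probes read −0.70 and −0.29 on the Myd88-KO arrays and −0.26 and −0.82 on the Wildtype arrays, with a difference of 0.05 (95% CI −0.73 to 0.82). The second probe, with 2 spots, read −1.29 and −1.71 against −1.39 and −1.53. The labels overlapped with both probes, and their differences had opposite signs (0.05 and −0.04). On the brighter probe, Myd88-KO array 2 and Wildtype array 1, the 2 arrays with the most probes detected, gave the higher values.

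Nfkb2 encodes p100, which restrains RelB until it is processed to p52 in the non-canonical pathway. Its probe read 0.35 and 0.54 on the Myd88-KO arrays and 0.32 and 0.21 on the Wildtype arrays. Both Myd88-KO values were above both Wildtype values, but Myd88-KO array 1 and Wildtype array 1 were only 0.02 apart. The difference was 0.18 (95% CI −0.18 to 0.54, adjusted p = 0.541), and it stayed above 0 in the 19 settings computed, between 0.08 and 0.28.

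Relb encodes RelB, the non-canonical partner of p52. Its brightest probe read 0.17 and 0.49 on the Myd88-KO arrays and 0.50 and 0.28 on the Wildtype arrays. The other probes of Relb gave differences of 0.03 and 0.05, against −0.05 for the brightest. All 3 were smaller than the SD within labels of their own probe (0.20, 0.26 and 0.08), and the sign depended on the probe chosen. The interval of the brightest probe ran from −0.54 to 0.44.

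Rel encodes c-Rel, a subunit used mostly by lymphoid and myeloid cells. Its probe was well above background on Wildtype array 1 only, at −4.53, and not well above background on Wildtype array 2 or on either Myd88-KO array. No fold was computed, because the mean of the Wildtype arrays lay under the lowest signals that counted as well above background on the Myd88-KO arrays. The 1 array that measured Rel was the array with the largest share of probes detected.

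**Figure D2:**
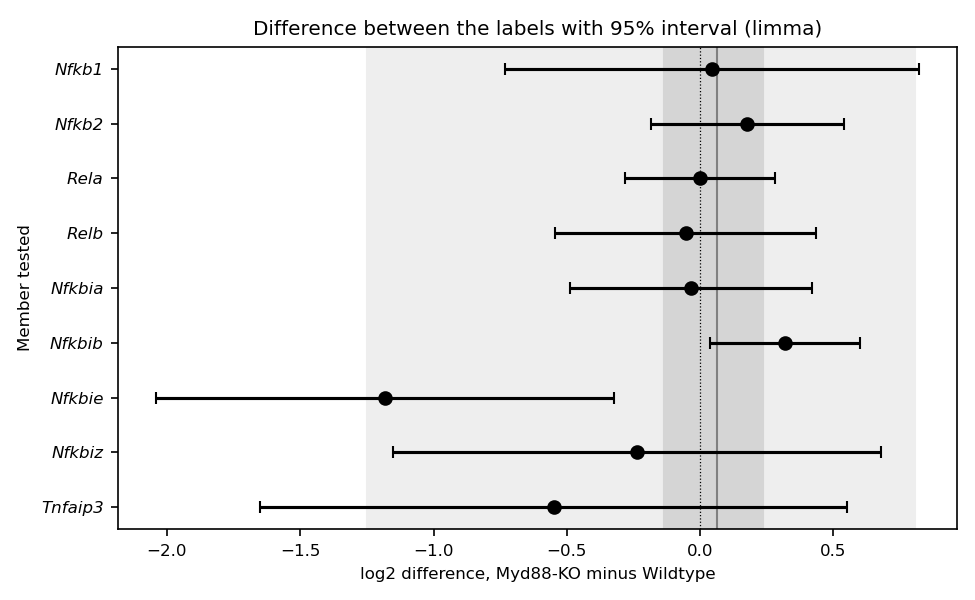
Log2 difference (Myd88-KO minus Wildtype, points) with its 95% confidence interval from limma (bars) for the 9 members tested, over the middle 50% (dark band) and 95% (pale band) of differences of all 22312 genes and their median (grey line). The intervals of Nfkbib and Nfkbie do not include 0, and the point of Nfkbie lies near the lower edge of the pale band at −1.25.

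The classical IκB genes had differences of unlike sign and size. Nfkbia, which encodes IκBα, the rapidly rebuilt inhibitor of canonical dimers, read 4.07 and 4.17 on the Myd88-KO arrays and 4.32 and 3.99 on the Wildtype arrays. The Wildtype values enclosed the Myd88-KO values. Its difference was −0.03 (95% CI −0.49 to 0.42), and it turned positive when Wildtype array 1 (0.13) or Myd88-KO array 1 (0.02) was left out.

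Nfkbib encodes IκBβ, an inhibitor that is rebuilt more slowly than IκBα. The brightest of its 3 probes (chromosome 7, 29544160 to 29544219, NCBI37/mm9) read 2.19 and 2.18 on the Myd88-KO arrays and 1.90 and 1.83 on the Wildtype arrays. The pairs were tight and did not overlap, with SDs of 0.009 and 0.05 (n = 2 each). The difference was 0.32 (95% CI 0.04 to 0.60), a 1.25-fold higher signal in Myd88-KO, with an adjusted p of 0.267. A second probe read 0.53 and 0.58 against 0.23 and 0.11, a difference of 0.39 with no overlap. The dimmest probe read −3.20 and −2.12 against −2.81 and −3.68, and its labels overlapped. So 2 of the 3 probes gave similar differences with narrow pairs, and the third was too scattered to add to them. Of all genes tested, 68.7% had a smaller absolute difference than Nfkbib. In the 19 settings the difference stayed between 0.24 and 0.43. Its place under the unadjusted threshold did not hold, and was lost under each of the 4 other scalings, without a filter, with probes averaged, with either block and with any 1 array left out.

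Nfkbie encodes IκBε, an inhibitor of RelA and c-Rel dimers known mainly from B cells and other blood cells. Its single probe (chromosome 17, 45700000 to 45700059, NCBI37/mm9) read −1.96 and −1.64 on the Myd88-KO arrays and −0.27 and −0.98 on the Wildtype arrays. Both Myd88-KO arrays were low, and Wildtype array 1 was the highest. The means were −1.80 ± 0.23 and −0.62 ± 0.50 (SD, n = 2 each), and the difference of −1.18 (95% CI −2.04 to −0.32), 2.27-fold, did not pass the test across all genes (adjusted p = 0.233). Of all genes tested, 96.4% had a smaller absolute difference. Leaving out 1 array at a time gave differences of −1.54 to −0.82, and normexp background correction gave −0.72. Nfkbie was no longer under the unadjusted threshold without Myd88-KO array 1 and with either form of the methods' t-test.

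Nfkbiz encodes IκBζ, a nuclear IκB that acts with p50 to induce a subset of NF-κB targets and is itself induced through MyD88. It read −1.91 and −1.56 on the Myd88-KO arrays and −1.12 and −1.88 on the Wildtype arrays. The labels overlapped, with a difference of −0.24 (95% CI −1.15 to 0.68). Wildtype array 1 was again the highest, and without it the difference was 0.15.

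Tnfaip3 encodes A20, an enzyme that edits ubiquitin chains and shuts off signalling upstream of IKK. It read −0.72 and −0.74 on the Myd88-KO arrays, and 0.33 and −0.69 on the Wildtype arrays. Wildtype array 2 was only 0.03 above the nearest Myd88-KO array, so that 1 array carried the difference of −0.55 (95% CI −1.65 to 0.55, adjusted p = 0.537). Without Wildtype array 1 the difference was −0.04, and without Wildtype array 2 it was −1.06, where Tnfaip3 came under the unadjusted threshold. The interval allows a difference of more than 1 log2 unit below 0, so these arrays do not show that A20 transcripts are alike in both labels.

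Over the 5 lists of other pathway genes, 68 genes were tested, and by the unadjusted threshold 3 were higher and 11 lower. In the kinase list (IKK subunits, kinases that act on them, and Tab1, Tab2 and Tab3), 11 of 11 genes were tested, with a median difference of 0.04. By the same threshold 1 was higher and 2 were lower, and no gene of the 5 lists passed the adjusted one. These counts, and those of the pathway lists below, stand beside 9.82% higher and 6.83% lower over all genes tested. Differences were above 0 for 13295 of these 22312 genes. Tab1, a partner of the kinase TAK1, differed by 0.36 and Map3k8 (TPL2) by 0.22. The lowest were Ikbke (IKKε), at −4.10 and −3.72 on the Myd88-KO arrays and −2.60 and −2.90 on the Wildtype arrays, with a difference of −1.16 (adjusted p = 0.203) and Myd88-KO array 1 not well above background, and Map3k14 (NIK, the kinase of the non-canonical pathway), at −0.59 (adjusted p = 0.231). In neither gene did the labels overlap, but Ikbke was tested through the Wildtype arrays alone, so its direction was partly set by the filter.

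Of the other IκB proteins and brakes, 14 of 14 were tested, with 4 differences above 0 and 10 below and a median of −0.09. Nfkbid, which encodes the nuclear IκBNS, read −1.65 and −1.92 on the Myd88-KO arrays and −0.51 and −0.89 on the Wildtype arrays. Its difference was −1.08 (adjusted p = 0.203), about the size of that of Nfkbie. Bcl3, a nuclear IκB that binds p50 and p52, differed by −0.38 (adjusted p = 0.241). Both had an unadjusted p under 0.05 and no gene of the list did so in the other direction. The highest were Tax1bp1, an A20 partner, at 0.25, and Zc3h12a, which encodes the RNase Regnase-1, at 0.24. Among ubiquitin ligases and RIP1, 15 of 15 were tested and none had an unadjusted p under 0.05. Their median was 0.0016, and the ends of the range were Birc3 (0.31) and Traf3 (0.24) above 0, and Traf5 (−0.47) and Rbck1 (−0.13) below.

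Of the 12 genes of the TNF family list, 10 were tested, 6 had differences below 0, and the median was −0.24. Tnfrsf13c, the BAFF receptor of B cells, read 0.25 and −0.67 on the Wildtype arrays and was not well above background on either Myd88-KO array. Its signal was at least 13.8-fold lower in Myd88-KO. This bound takes, for each Myd88-KO array, the higher of its own value and the lowest signal counted as well above background there. The limma adjusted p of 0.194 belongs to the values as measured, and the bound was not tested. Ltb, which encodes lymphotoxin β, differed by −2.11 (adjusted p = 0.203), and Cd40, a receptor of B cells and antigen-presenting cells, by −1.63 (adjusted p = 0.257), with Cd40 not well above background on Myd88-KO array 1. Of the 10 genes, 4 (Cd40, Tnfrsf13c, Tnf and Lta) were tested through the Wildtype arrays alone, so their direction was partly set by the filter. The highest were Ltbr, the lymphotoxin β receptor of stromal and epithelial cells, at 0.38 (adjusted p = 0.231), and Tnfrsf11a (RANK) at 0.33. The ligand Ltb and its receptor Ltbr thus had differences of opposite sign.

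Among 26 genes known as NF-κB targets, 18 were tested. Bcl2a1a was not found among the gene names on the array, and the other 7 were too dim to test. Il6, Sele, Ccl20, Csf2, Ptgs2 and Mmp9 were not well above background on any array, and Cxcl2 was on 1. Of those tested, 8 differences were above 0 and 10 below (median −0.09), with 1 and 4 genes, respectively, at an unadjusted p under 0.05. Cxcl1, a neutrophil chemokine, read −2.44 and −2.40 on the Myd88-KO arrays and −2.89 and −3.37 on the Wildtype arrays, a difference of 0.71 (adjusted p = 0.251), and Cflar, an inhibitor of caspase-8, differed by 0.34. The lower genes were Ccl5 (−2.16), Traf1 (−1.58), Cd83 (−1.49) and Ier3 (−0.42), with adjusted p of 0.204, 0.204, 0.211 and 0.226. Ccl5 is made largely by T cells, and Cd83 marks activated dendritic cells and B cells. Differences of both signs were thus found among targets of the same factor.

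**Figure D3:**
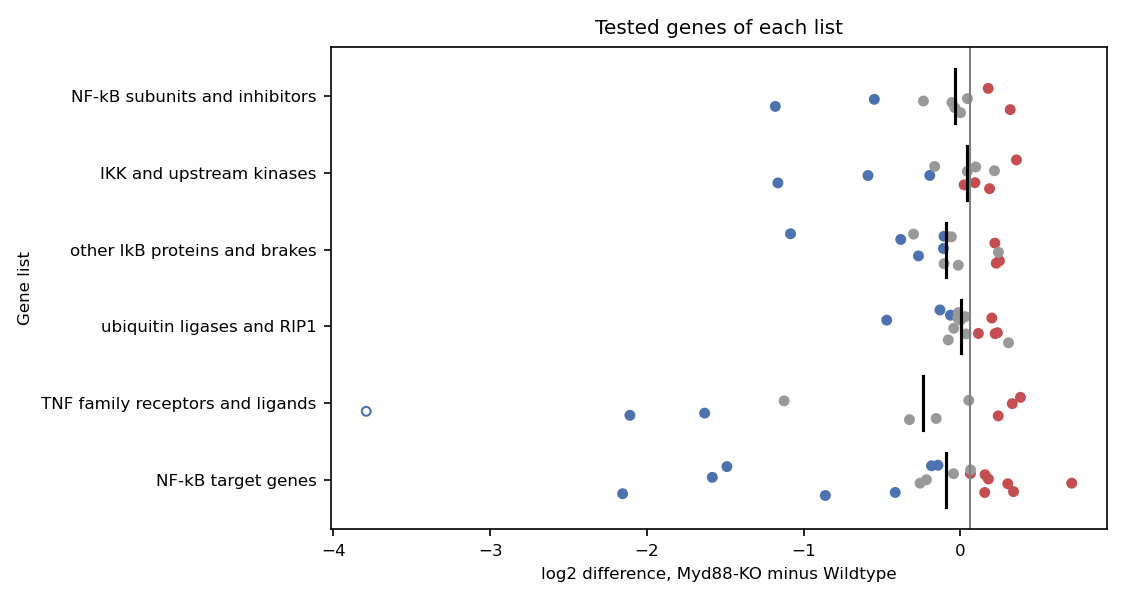
Log2 difference (Myd88-KO minus Wildtype) of each tested gene in the members and in 5 lists of pathway genes (red, both Myd88-KO arrays above both Wildtype arrays; blue, both below; grey, overlapping; open, at its bound because 1 label was not well above background), with the median of each list (black bar) and of all genes tested (grey line). Most points lie near 0, Ccl5 lies at −2.16 and Ltb at −2.11, and the open point of Tnfrsf13c at −3.79 is a bound and not a measured difference.

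Marker lists of blood cells were read on the same arrays. No gene of any marker list passed the adjusted threshold, and no list was tested. In bulk RNA, fewer cells of a type in the sample and less RNA per cell cannot be told apart. Such cells may belong to the gland or to tissue left on it, and how completely neighbouring tissue was dissected away was not tested. By flow cytometry of submandibular glands from male mice, the paper reports more B cells, mainly of the B-1 type, and plasma cells in Myd88-null animals. The arrays here are of females, include sublingual glands and read bulk RNA rather than counting cells. Which of these differences matters was not tested. The summed linear signal of 10 B cell markers was 3.43 and 3.48 on the Myd88-KO arrays and 21.1 and 11.6 on the Wildtype arrays, and its brightest gene, Cd79b, read −3.31 and −2.24 against 2.81 and 1.79. All 10 were well above background on Wildtype array 1, 8 on Wildtype array 2, and 5 and 7 on the Myd88-KO arrays.

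The sum of 10 T cell markers was 12.3 and 11.99 on the Myd88-KO arrays against 24.4 and 17.7 on the Wildtype arrays. Its brightest gene, Cd4 (−0.04), and Cd3e (−0.06) were nearly level with overlapping labels. The median of 9 tested genes was −2.84, also with Cd8a at its bound. Of these 9 genes, 4 were tested through the Wildtype arrays alone. Dendritic cell markers summed to 0.92 and 1.00 against 4.44 and 2.53, with Ccr7 the brightest. The median over 5 genes was −1.56, or −0.39 with Clec9a at its bound, and 2 of the 5 (Flt3 and Clec9a) were tested through the Wildtype arrays alone. Plasma cell markers summed to 1.38 and 1.37 against 4.10 and 3.12, and their 4 tested genes split, with 2 above 0 (Sdc1 at 0.39 and Prdm1 at 0.05) and 2 below. The lower genes were Igj, the brightest of the list, which was not well above background on Myd88-KO array 1, and Mzb1, at least 8.01-fold lower. Both were tested through the Wildtype arrays alone. The plasma cell median of −1.87 (−1.48 with Mzb1 at its bound) therefore describes neither pair, and Tnfrsf17 was not well above background on any array.

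In these 4 lists Wildtype array 1 gave the highest sum. It also gave the highest value of 7 of the 9 members tested (Nfkb1, Rela, Relb, Nfkbia, Nfkbie, Nfkbiz and Tnfaip3), where 19.1% of all genes tested were highest on it. For Nfkb1, Rela and Relb its lead over the next array was smaller than the SD between spots of a probe. The part of blood cells in the lower Nfkbie, Nfkbid, Ikbke and Traf1 signals was not tested.

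The 3 genes whose values over the 4 arrays lay closest to those of Nfkbie, after centring, were a transcript listed only by an Ensembl identifier (root mean square distance 0.04), Rcsd1 (0.04) and Gimap6 (0.05). Including these, 113 of the 22312 genes tested lay within 0.2 of Nfkbie. Of the genes in the pathway and marker lists, only Ikbke, Vcam1 and Mpo were among them.

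Macrophage markers summed to 35.2 and 30.4 on the Myd88-KO arrays and 36.1 and 28.3 on the Wildtype arrays (brightest Csf1r, median difference 0.03 over 8 genes). The labels overlapped for 6 of these genes, and Emr1 (0.65) and Cd14 (0.24) were higher in Myd88-KO without overlap. Neutrophil markers summed to 161 and 170 against 155 and 185, a sum made almost wholly of Csf3r, whose difference was −0.03. Of the 7 neutrophil genes tested, 6 had differences below 0 and 5 of these did not overlap (median −0.46). Of these, S100a8 and Mpo were tested through the Wildtype arrays alone, S100a8 being dim on Myd88-KO array 1 and Mpo on both Myd88-KO arrays. S100a9, well above background on all arrays, differed by −1.45, and Wildtype array 1 was the highest for it as for Nfkbie. Endothelial markers summed to 33.1 and 36.0 against 26.2 and 34.0 (brightest Kdr). Their 6 genes split, with 3 above 0 (Tek at 1.13, Emcn at 0.36 and Kdr at 0.34) and 3 below (Cdh5 at −0.64, Vwf at −0.07 and Pecam1 at −0.03).

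Skeletal muscle markers summed to 2.47 and 2.44 on the Myd88-KO arrays against 20.6 and 114.6 on the Wildtype arrays. Wildtype array 2 was the highest, the reverse order of the Wildtype arrays for Nfkbie. An order of 2 arrays per label does not assign Nfkbie to a cell type, here or in the lists above. The brightest muscle gene, Myh4, was not well above background on either Myd88-KO array and was at least 217.7-fold lower there. The median over 8 genes was −4.49, also with Myh4 and Myh2 at their bounds, and 4 of the 8 (Myh1, Myh2, Myh4 and Tnnt3) were tested through the Wildtype arrays alone. Adipocyte markers summed to 151 and 239 against 326 and 332 (brightest Fabp4, median −0.80 over 6, Lep not well above background on any array). Markers of the glands were well above background on all arrays. The 7 genes listed as submandibular acinar are not all specific to those cells. They summed to 5214 and 4846 against 3704 and 3986 (brightest Dcpp1, median 0.30). The genes were not alike, from Smgc at 1.57 to Aqp5 at 0.17, Bhlha15 at 0.03 and Amy1 at −0.57, the last 2 with overlapping labels. The sum was higher in Myd88-KO as Nfkbib was. A sum of linear signals follows its brightest genes and does not measure acinar cells, and their part in the Nfkbib signal was not tested. Granular convoluted tubule markers summed to 2158 and 2104 against 1879 and 2201 (brightest Klk1, median −0.05 over 6) and sublingual markers to 1724 and 1190 against 1569 and 1653 (brightest Psp, median −0.13 over 3).

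**Figure D4:**
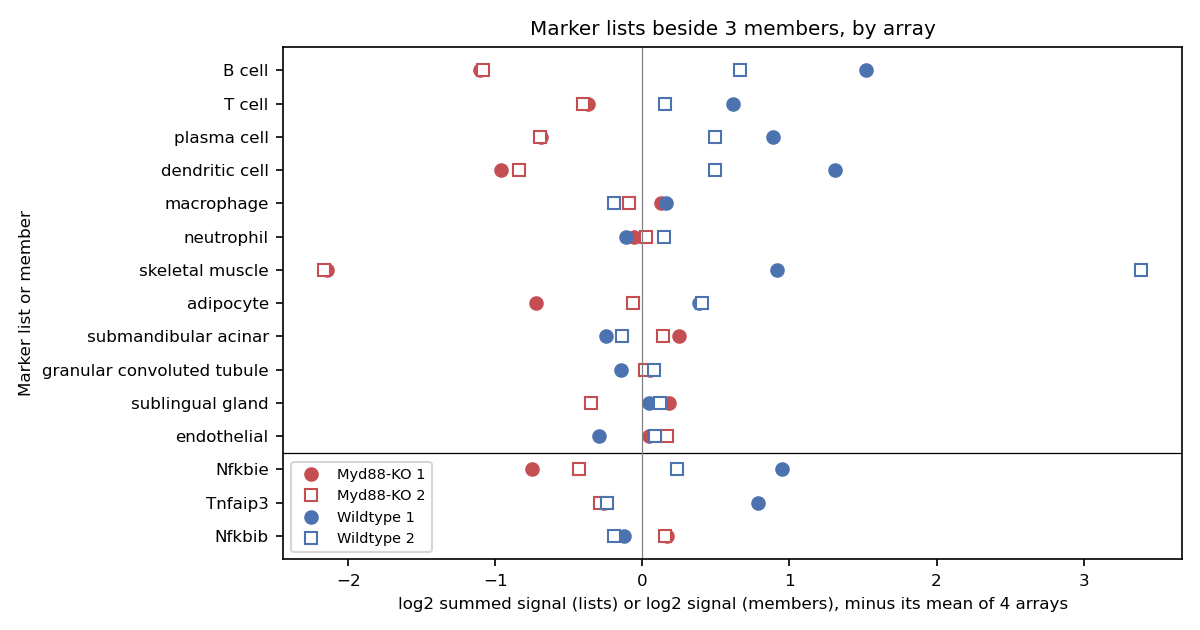
Log2 summed signal of 12 marker lists and log2 signal of Nfkbie, Tnfaip3 and Nfkbib on each array, each minus its mean over the 4 arrays (red, Myd88-KO; blue, Wildtype; filled circles, array 1; open squares, array 2). The B cell, T cell, plasma cell and dendritic cell sums place the arrays as Nfkbie does, with Wildtype array 1 highest and both Myd88-KO arrays lowest, and Tnfaip3 differs from them in that Wildtype array 2 sits with the Myd88-KO arrays.

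**Figure D5:**
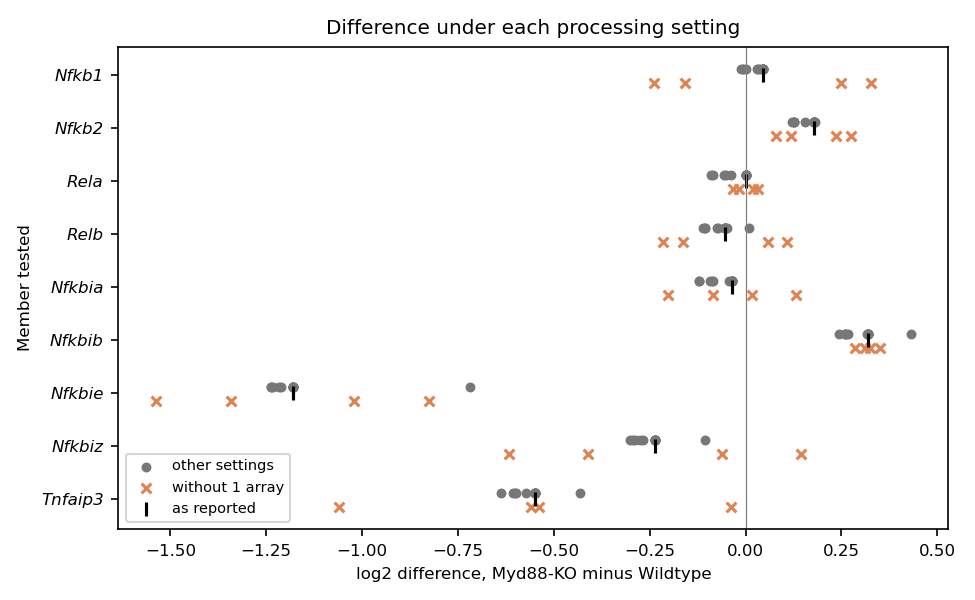
Log2 difference of the 9 members tested (Myd88-KO minus Wildtype) as reported (black bar), with 1 array left out (orange crosses) and under the other processing settings (grey points). Nfkbib stays above 0 and Nfkbie below 0 in the 19 settings shown, Tnfaip3 runs from −1.06 to −0.04, and Nfkb1, Rela, Relb, Nfkbia and Nfkbiz lie on both sides of 0.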

How the data were processed

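RNA of 4 samples was hybridized as Cy3-labelled cRNA to 1 slide, scanned once. The authors deposited scanner files from Feature Extraction 10.7.3.1. The deposited processed signal is a background-corrected intensity not normalized between arrays, and the mean and local background intensity are as scanned. Gene names and probe positions come from these files. A series table with 4 columns that match no single sample was not used.

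From these files, log2 processed signals of 59305 non-control spots were set against the array's own 75th percentile (256, 237, 321 and 269 in the order Myd88-KO 1 and 2, Wildtype 1 and 2). Outlier spots by the scanner software's flags (99 to 131 an array) were dropped, no spot was saturated, and spots of a probe were averaged. Where a share over 0.5 of its spots lay well above background the probe did too, and it was tested when both arrays of a label passed. Each gene was represented by its brightest tested probe. limma 3.58.1 (lmFit and eBayes, in R 4.3.3) compared the labels, two-sided, with Benjamini-Hochberg adjustment over 22312 genes and a threshold of 0.05. The procedure was tested on simulated arrays. The number of arrays limits the precision.

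Named are the 10 members, Myd88, and of each pathway list the 2 highest and 2 lowest differences and every gene with an unadjusted p under 0.05. Also named are the 3 genes closest to the member with the largest absolute difference. Genes too dim to test and single marker genes are named beside these, and were picked after their values were seen. Members and lists were chosen with earlier results of these data known, and no list was tested. Marker sums take the brightest probe of each gene. The 17 other settings covered background correction, scaling, filters, probe choice, moderation, the methods' t-test, a replicate block and leaving out each array. Another 1 was added after seeing the data.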

Additional observations from a re-analysis of the deposited data

How the results depend on the processing

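The number of genes called moved from 0 to 79 with normexp, 402 with median scaling, 482 with trended and robust moderation and 1 with the methods' t-test on log2 or on linear values, and no member was called in any of the 19 settings. Over all genes tested, 2190 were higher and 1525 lower at an unadjusted p under 0.05 as reported. These counts were 1614 and 1700 with quantile normalization and 1654 and 1888 with the percentile of detected probes. They were 240 and 755 with median scaling and 1572 and 2213 with cyclic loess. The number of members with an unadjusted p under 0.05 fell from 2 to 1 under each of the 4 other scalings, without a filter, with probes averaged per gene and with the crossed block (Nfkbie left), and to 1 with either form of the methods' t-test (Nfkbib left). It was 0 to 2 with 1 array left out, 0 being without Myd88-KO array 1 and 2 (Nfkbie and Tnfaip3) without Wildtype array 2. Members whose arrays do not overlap numbered 4 to 9 with 1 array left out, as a lone array overlaps less often, and 3 with the percentile of detected probes or median scaling. With quantile normalization and cyclic loess there were 4, Rela taking the place of Nfkb2. The cause of the other changes was not tested.

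With the replicate number as a block, 0 genes and 0 members were called, and 1 member had an unadjusted p under 0.05. Same-numbered arrays deviated in opposite directions (r = −0.373 across 22312 genes, which are not independent), so crossed pairs, chosen after seeing the data, were also blocked, with 0 genes and 0 members called.

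Some differences near 0 turned sign. Nfkb1 was −0.0125 with the 75th percentile of detected probes, −0.0069 with median scaling and −0.0056 with cyclic loess. Rela was −0.0368 with normexp, −0.0903 with quantile normalization, −0.0569 with the percentile of detected probes, −0.0512 with median scaling and −0.0844 with cyclic loess. Relb was 0.0096 with the mean of its probes. With 1 array left out, where the lone array is assumed to vary like the others, Nfkb1 ran from −0.24 to 0.33, Rela from −0.0319 to 0.0333, Relb from −0.21 to 0.11, Nfkbia from −0.20 to 0.13 and Nfkbiz from −0.62 to 0.15. Signal over background limits Rel. The dimmest Nfkbib probe was well above background on all 4 arrays but scattered within labels (SD 0.69), and the cause was not tested.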
